A study of Mus musculus with 8 samples.

Results

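The 9 genes described here encode enzymes of the tricarboxylic acid cycle in mouse liver: Pcx, Cs, Idh3a, Idh2, Ogdh, Dlst, Suclg1, Fh1 and Mdh2. They were chosen by symbol from a table of 17810 genes, all 9 were listed, and all 9 were among the 12395 genes that passed the filter on low counts. The RNA-Seq libraries came from 8 male mice, 4 WT and 4 HKO, with 1 separately labelled liver per library. The paper describes WT and HKO mice as littermates, and which of these mice shared a litter is not given. HKO mice carry a floxed miR-33 gene deleted by Cre recombinase under the albumin promoter, which acts in hepatocytes, and the controls are littermates labelled WT, whose floxed alleles are not given in the sources used here. Every mouse was 8 weeks old when it was switched to CD-HFD, a diet rich in fat and without choline, stayed on it for 3 months and was 5 months old when the PBS-perfused liver was frozen after a fast. The comparison asks how loss of miR-33 in hepatocytes affects the transcripts of the cycle in a fatty liver. The microRNA itself was not analysed here, so the deletion was not checked.

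The tricarboxylic acid cycle runs in the mitochondrial matrix. It oxidises the acetyl-CoA made from pyruvate, fatty acids and amino acids, passes the electrons to the respiratory chain, and in liver also supplies carbon for glucose, fatty acid and amino acid synthesis. Citrate synthase (Cs) joins acetyl-CoA to oxaloacetate, isocitrate and 2-oxoglutarate dehydrogenases release carbon dioxide, succinyl-CoA synthetase makes a nucleoside triphosphate, and fumarase and malate dehydrogenase return oxaloacetate. Pyruvate carboxylase (Pcx) refills the cycle by making oxaloacetate from pyruvate and is also the first step of gluconeogenesis.

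miR-33-5p, the microRNA removed in the HKO hepatocytes, pairs with messenger RNAs mainly through its seed, bases 2 to 8, shown in capitals in the RefSeq mature sequence (GRCm38, chr15:82198127-82198147, + strand):
miR-33-5p: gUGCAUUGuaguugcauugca
The complementary sites CAATGCA and AATGCAA were searched on the sense strand, in the longest 3'UTR annotated for a gene, and they overlap by 6 bases where both occur together. None of the 9 enzyme genes, whose 3'UTRs run from 183 to 1347 bases, held either site (0 of 9), against 1872 of 11608 tested genes with an annotated 3'UTR (16.1%). The absence of these letters says nothing about sites of another kind or outside that window.

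Values are CPM, the count of a gene scaled to a common library total after adjustment by the trimmed mean of M values (TMM), with SD over 4 livers. Differences are log2 fold changes of HKO over WT with their SE, tested by the quasi-likelihood method of edgeR, and p-values were adjusted (Benjamini-Hochberg) over all 12395 tested genes; a gene was called at an adjusted p under 0.05. The libraries held 12174339 to 18735785 counts, and the enzyme genes had 497 to 6558 counts per liver. HKO replicate 3 stood apart: its counts differed from those of the other HKO livers by a chi-square per gene of 115 to 130, against 19.7 to 44.9 for the other pairs within a genotype.

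Expression of 1 of the 9 enzyme genes, Pcx, fell in HKO livers at the adjusted threshold, and none rose. By the same rule 5.03% of all tested genes were called in either direction, and 3.37% were called lower. The means of 7 of the 9 were lower in HKO livers and 2, Fh1 and Idh3a, were higher, with a median log2 fold change of -0.26; of all tested genes, 48.4% were lower and the median was 0.01. In 4 of the 9 the HKO and WT livers did not overlap, with Pcx, Dlst and Suclg1 lower and Fh1 higher, where 12.5% of all tested genes had no overlap and 7.19% had none with HKO livers lower. The unadjusted p was under 0.05 for 6 of the 9 and for 19.8% of all tested genes. Without HKO replicate 3, Pcx was still the 1 gene called and the median log2 fold change was -0.20.

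**Figure D1:**
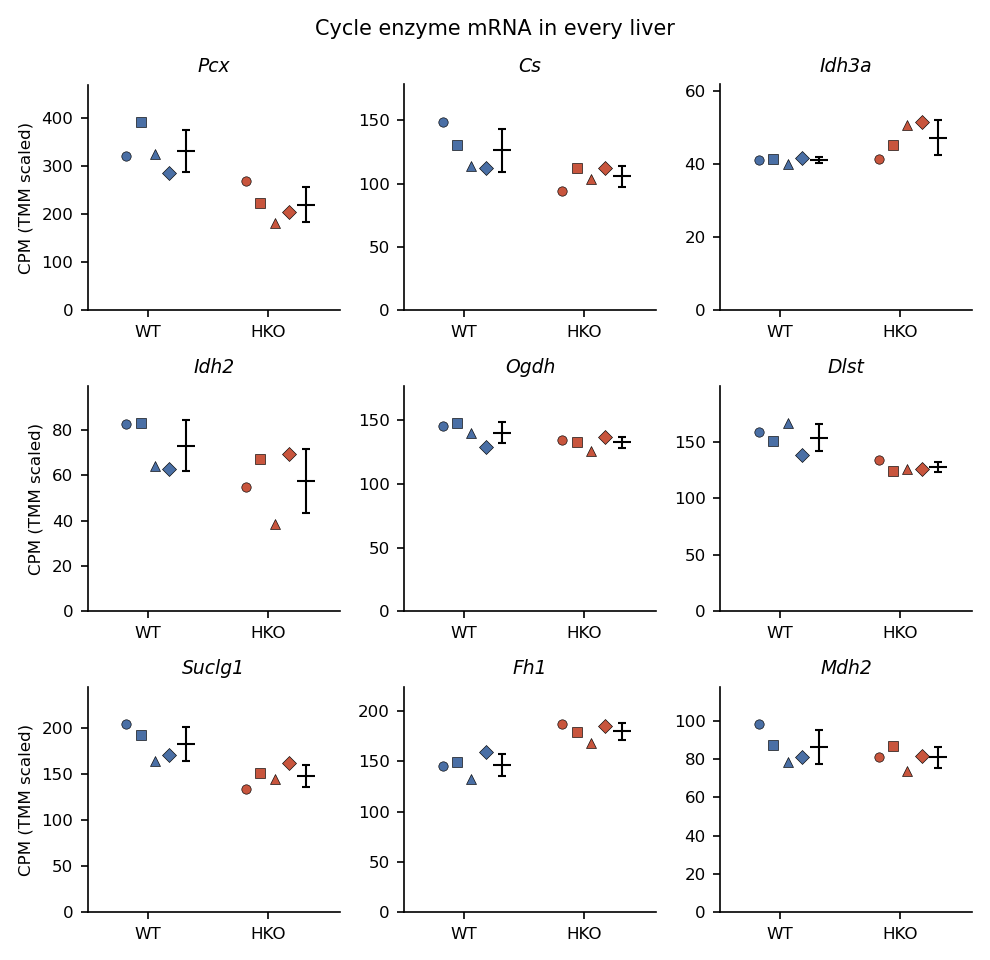
Expression of the 9 enzyme genes in CPM (y axis, from 0) in each WT and HKO liver (x axis); the symbol shape gives the replicate number (circle 1, square 2, triangle 3, diamond 4), and the bar gives the mean ± SD of 4 livers. The genotypes separate for Pcx, Dlst and Suclg1, lower in HKO, and for Fh1, higher in HKO, and overlap for the other 5.

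Pcx, which feeds oxaloacetate into the cycle, had the largest difference of the 9. Its gene lies on GRCm38 chr19:4510472-4621752 (+ strand). WT replicates 1 to 4 had 321, 391, 326 and 286 CPM, and HKO replicates 1 to 4 had 269, 223, 182 and 205 CPM. Every HKO liver was below every WT liver, with the narrowest gap between WT replicate 4 and HKO replicate 1. The mean fell from 331 ± 44.1 to 220 ± 36.9 CPM (SD, n = 4 each), 66.4% of WT, a log2 fold change of -0.59 (SE 0.13, edgeR adjusted p = 0.0239). The call did not hold with every liver left out. It was lost without WT replicate 1, 2 or 3 or HKO replicate 2 or 4 (edgeR adjusted p from 0.0515 to 0.084). In those fits 212 to 517 genes were called, in place of 624. Without HKO replicate 3 the edgeR adjusted p stood at 0.0497. The log2 fold change of Pcx stayed between -0.70 and -0.50 with any liver left out. Pcx overlaps Lrfn4 on the opposite strand, and because strand use in counting is not given, reads of the pair cannot be told apart where they overlap. The same limit holds for Pdha1, Mpc1, Etfdh, Me1, Idh3b and Gabpa, described below, each of which overlaps a gene on the opposite strand.

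Cs, on chr10:128337727-128362482 (+ strand), encodes citrate synthase, which takes the oxaloacetate onward. The WT livers had 149, 130.5, 114 and 112 CPM and the HKO livers had 94.6, 112, 104 and 113 CPM. HKO replicates 2 and 4 lay level with WT replicate 4, so the genotypes overlapped. The means were 126 ± 16.9 and 106 ± 8.46 CPM (SD, n = 4 each), with a log2 fold change of -0.26 (SE 0.10, edgeR adjusted p = 0.189).

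Isocitrate is oxidised in mitochondria by the NAD-dependent enzyme, whose catalytic subunit is Idh3a (chr9:54586511-54604662, + strand), and by the NADP-dependent enzyme Idh2 (chr7:80094847-80115350, - strand). Idh3a was very even in WT livers, at 41.1, 41.5, 40.0 and 41.7 CPM, and had 41.4, 45.2, 50.8 and 51.5 CPM in HKO livers. HKO replicate 1 lay within the WT range and the other HKO livers lay above it, with a log2 fold change of 0.20 (SE 0.09, edgeR adjusted p = 0.222). Idh2 had 82.6, 83.0, 64.0 and 62.9 CPM in WT livers and 54.7, 67.4, 38.4 and 69.2 CPM in HKO livers. It was the most variable of the 9 in HKO livers, with a coefficient of variation of 24.8% against 15.3% in WT, and HKO replicate 3 was the lowest. Its log2 fold change was -0.35 (SE 0.18, edgeR adjusted p = 0.342), and -0.20 (adjusted p = 0.495) without that liver.

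The 2-oxoglutarate dehydrogenase complex is built from Ogdh, which decarboxylates 2-oxoglutarate, Dlst, whose lipoyl arm passes the succinyl group to coenzyme A, and Dld, which reoxidises the arm. Dlst (chr12:85110833-85134091, + strand) had 159, 151, 166.6 and 138.5 CPM in WT livers and 134, 124, 126 and 126 CPM in HKO livers. The HKO livers were close together and all below the WT livers, with means of 154 ± 12.03 and 128 ± 4.39 CPM (SD, n = 4 each). The log2 fold change was -0.27 (SE 0.08, edgeR adjusted p = 0.0706), short of the threshold. Ogdh (chr11:6291597-6359094, + strand) had 145, 147, 139 and 129 CPM in WT livers and 134, 133, 126 and 136 CPM in HKO livers, which overlapped, with a log2 fold change of -0.08 (SE 0.07, edgeR adjusted p = 0.593). Ogdh overlaps Gm46270 on the opposite strand, with the same limit as for Pcx.

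Suclg1 (chr6:73248505-73276907, + strand) encodes the alpha subunit of succinyl-CoA synthetase, which both forms of the enzyme share. WT livers had 204, 192, 164 and 170 CPM and HKO livers had 134, 151, 144 and 162 CPM. The genotypes did not overlap, but WT replicate 3 and HKO replicate 4 had nearly equal values. The means were 182 ± 18.7 and 148 ± 11.8 CPM (SD, n = 4 each), with a log2 fold change of -0.30 (SE 0.09, edgeR adjusted p = 0.0874), again short of the threshold.

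Fh1 (chr1:175601378-175625635, - strand), which encodes fumarase, was the 1 enzyme gene with all HKO livers above all WT livers. WT livers had 146, 149, 133 and 159 CPM and HKO livers had 187, 179.1, 168 and 185 CPM. The means were 147 ± 11.0 and 180 ± 8.27 CPM (SD, n = 4 each), with a log2 fold change of 0.29 (SE 0.08, edgeR adjusted p = 0.0523), just outside the threshold. Mdh2 (chr5:135778649-135790386, + strand), the mitochondrial malate dehydrogenase that follows fumarase, had 98.3, 87.2, 78.8 and 81.0 CPM in WT livers and 81.4, 86.9, 73.7 and 81.8 CPM in HKO livers. The ranges of Mdh2 overlapped, and the log2 fold change was -0.09 (SE 0.09, edgeR adjusted p = 0.629).

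Promoter sequence, 250 bases before to 50 after an annotated start, was matched in RefSeq (GRCm38) for 8 of the 9 genes, all but Idh3a. It is shown for the 4 genes whose genotypes did not overlap, 5′ to 3′ on the strand of the gene, with matches on either strand in capitals. The motifs searched were GGGCGG (bound by SP1), CCGGAAG (GABP), GCATGCGC (NRF1) and AAGGTCA (estrogen-related receptors). The windows are chr19:4510222-4510521 and chr19:4594069-4594368 (+ strand) for the first and the downstream start of Pcx, chr12:85110583-85110882 (+) for Dlst, chr6:73248255-73248554 (+) for Suclg1 and chr1:175625586-175625885 (-) for Fh1:
Pcx, first start: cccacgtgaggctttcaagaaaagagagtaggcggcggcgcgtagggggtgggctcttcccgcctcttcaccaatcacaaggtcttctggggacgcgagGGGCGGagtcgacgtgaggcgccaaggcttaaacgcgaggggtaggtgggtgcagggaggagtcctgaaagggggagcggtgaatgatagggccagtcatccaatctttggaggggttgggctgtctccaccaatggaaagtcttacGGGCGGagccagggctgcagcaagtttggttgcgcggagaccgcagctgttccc
Pcx, downstream start: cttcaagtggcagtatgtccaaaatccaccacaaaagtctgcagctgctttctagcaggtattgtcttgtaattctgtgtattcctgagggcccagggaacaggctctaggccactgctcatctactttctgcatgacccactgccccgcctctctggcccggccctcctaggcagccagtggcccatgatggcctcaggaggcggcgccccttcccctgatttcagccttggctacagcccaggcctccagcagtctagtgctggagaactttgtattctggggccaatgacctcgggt
Dlst: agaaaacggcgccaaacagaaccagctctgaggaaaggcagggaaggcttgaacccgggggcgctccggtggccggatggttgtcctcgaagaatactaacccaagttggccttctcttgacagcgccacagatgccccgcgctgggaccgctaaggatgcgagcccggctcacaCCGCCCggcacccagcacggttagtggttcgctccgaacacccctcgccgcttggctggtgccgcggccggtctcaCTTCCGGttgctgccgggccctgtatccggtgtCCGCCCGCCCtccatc
Suclg1: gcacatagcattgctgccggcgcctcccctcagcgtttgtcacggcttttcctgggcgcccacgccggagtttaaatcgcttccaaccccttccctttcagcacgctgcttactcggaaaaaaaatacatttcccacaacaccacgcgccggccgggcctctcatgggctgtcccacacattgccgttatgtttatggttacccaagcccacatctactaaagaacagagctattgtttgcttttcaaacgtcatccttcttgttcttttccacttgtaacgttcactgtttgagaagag
Fh1: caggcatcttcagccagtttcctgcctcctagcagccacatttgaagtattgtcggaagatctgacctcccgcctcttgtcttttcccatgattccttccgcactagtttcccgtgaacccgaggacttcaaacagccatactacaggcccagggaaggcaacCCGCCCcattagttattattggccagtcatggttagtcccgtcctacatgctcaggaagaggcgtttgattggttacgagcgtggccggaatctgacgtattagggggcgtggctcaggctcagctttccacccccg
The first Pcx promoter held 2 matches to GGGCGG, the downstream one none, Fh1 held 1 and Suclg1 none. Dlst held 3, of which 2 overlap, and 1 match to CCGGAAG at its start site. Of the 8 genes matched, 7 had GGGCGG in at least 1 promoter, as 66.6% of tested genes did. CCGGAAG was found in Dlst alone of the 8 (1985 of 9921 tested genes), and AAGGTCA (4.16%) and GCATGCGC (5.88%) in Ogdh alone. Ogdh had more annotated starts, and so more sequence searched, than any other of the 8. Its AAGGTCA and GCATGCGC matches lay at downstream starts and not at the first. Pcx, Dlst and Suclg1 are the genes whose HKO livers all lay below the WT livers. Since Suclg1 held no match, none of the motifs searched was found in all of them, and other motifs were not searched. Pcx and Dlst both held GGGCGG, as did Fh1, whose HKO livers lay above.

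The number of enzyme genes called depended on the method. DESeq2 called 3 of the 9 where it called 7.67% of all genes: Pcx (adjusted p = 0.000764), Fh1 (0.00845) and Dlst (0.023). With total counts as the only scaling, edgeR called Pcx, Dlst and Suclg1, where 5.97% of all tested genes were called. Without WT replicate 4, edgeR called Pcx, Dlst (adjusted p = 0.0396) and Fh1 (adjusted p = 0.0402), where 4.82% of all genes tested in that fit were called.

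**Figure D2:**
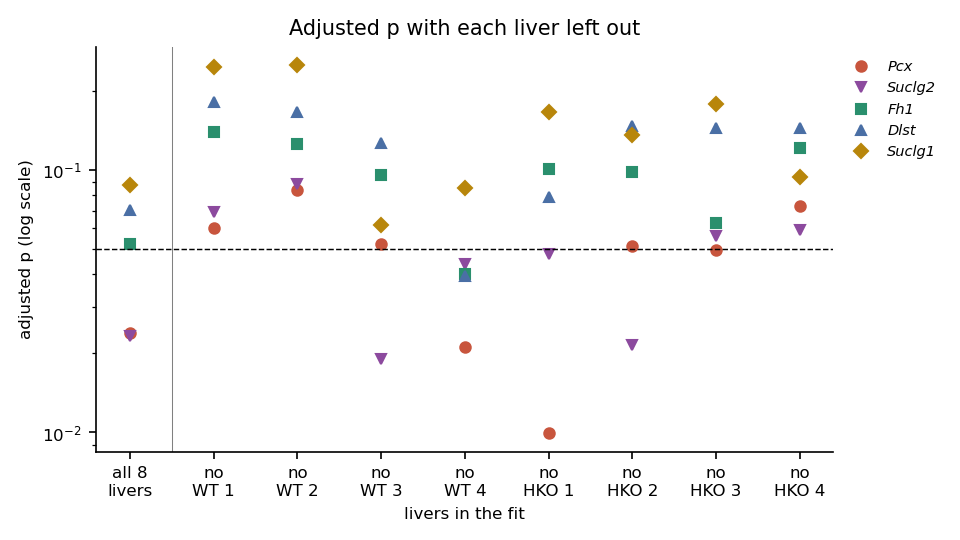
Adjusted p of edgeR's quasi-likelihood test (y axis, log scale) for Pcx, Suclg2, Fh1, Dlst and Suclg1 with all 8 livers and with each liver left out in turn (x axis); the dashed line marks 0.05. Pcx passes with all livers and in 3 of the 8 fits with a liver left out, and Suclg2 in 4 of 8.

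Further subunits of the cycle, 10 genes, give the setting of these values. Of these, 9 were tested, 1 was called, 8 had a lower and 1 (Sdhb, which was lower with total count scaling) a higher mean in HKO livers, and the median log2 fold change was -0.08. Ogdhl, the brain-type relative of Ogdh, was not tested: it had no count in any WT liver and a mean of 0.05 CPM in HKO livers, where 3 counts correspond to 0.16 to 0.246 CPM. The gene called was Suclg2 (chr6:95473009-95718846, - strand), the beta subunit of the GTP-forming succinyl-CoA synthetase. It had 457, 483, 405 and 478 CPM in WT livers and 328, 380, 297 and 339 CPM in HKO livers, without overlap. Suclg2 fell from 456 ± 35.9 to 336 ± 34.2 CPM (SD, n = 4 each), a log2 fold change of -0.44 (SE 0.09, edgeR adjusted p = 0.0233). The call was lost without WT replicate 1 or 2 or HKO replicate 3 or 4 (adjusted p from 0.0562 to 0.0881). Sucla2, the beta subunit of the ATP-forming enzyme, had 204 ± 6.10 CPM in WT livers and 196 ± 9.48 CPM in HKO livers (SD, n = 4 each), with a log2 fold change of -0.06 (SE 0.07, edgeR adjusted p = 0.714).

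None of the remaining subunits was called. The regulatory subunits Idh3b and Idh3g had 113 and 34.1 CPM in WT livers and 111 and 30.0 CPM in HKO livers. Dld had 248 CPM in WT livers against 230 CPM in HKO livers. For the subunits of succinate dehydrogenase, which is also complex II of the respiratory chain, WT and HKO means were 508 and 479 CPM for Sdha, 119 and 125 CPM for Sdhb, 120 and 115 CPM for Sdhc, and 164 and 155.3 CPM for Sdhd. The edgeR adjusted p of these 7 genes ran from 0.297 to 0.884.

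**Figure D3:**
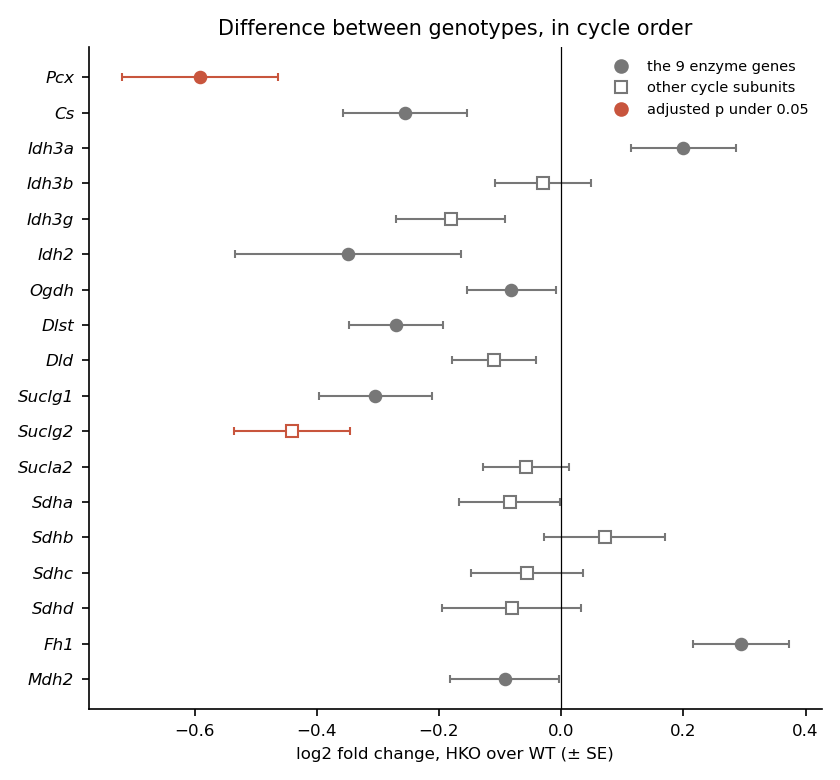
log2 fold change of HKO over WT with its SE (x axis) for the 9 enzyme genes (filled circles) and 9 other cycle subunits (open squares), from pyruvate carboxylase at the top through the turn of the cycle (y axis). Pcx at -0.59 and Suclg2 at -0.44, in red, passed an adjusted p under 0.05; Fh1 and Idh3a lie furthest to the right.

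A ratio of 2 genes within a liver does not depend on how libraries are scaled. Ratios were taken for 14 pairs of genes, set by their place in the cycle or in the same enzyme, after the values had been seen, and they are given as description with no test. The genotypes did not overlap in 8 of the 14 pairs, and in 3 of the 7 pairs that follow the order of the 9 enzyme genes. Not all of these 7 are consecutive reactions. Cs to Idh3a and Suclg1 to Fh1 each pass over a step, for the latter succinate dehydrogenase. The pairs reuse the same genes and are not separate observations. How often ratios of other gene pairs separate was not counted, so these counts have no background beside them. The log2 ratio of Suclg1 to Fh1 was 0.49, 0.37, 0.30 and 0.09 in WT livers and -0.48, -0.25, -0.22 and -0.19 in HKO livers. The ratio was above 0 in every WT liver and below 0 in every HKO liver, a difference of means of -0.60. It is a ratio of counts, not of levels per length, so its crossing of 0 has no meaning of its own. Suclg1 and Fh1 had each separated, in opposite directions, so their ratio had to separate too and adds no further observation. Fh1 to Mdh2, the next step, moved from 0.77 ± 0.17 to 1.15 ± 0.07 (SD, n = 4 each) with no overlap. Cs to Idh3a went from 1.61 ± 0.19 to 1.17 ± 0.12, again with no overlap. The other 4 of these 7 pairs overlapped between genotypes. Pcx to Cs was 1.39 ± 0.21 in WT and 1.04 ± 0.32 in HKO livers, and Idh3a to Ogdh was -1.77 ± 0.10 and -1.49 ± 0.17. Dlst to Suclg1 was -0.24 ± 0.18 and -0.21 ± 0.16, and Mdh2 to Cs was -0.55 ± 0.06 and -0.39 ± 0.12, in WT and HKO livers.

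Ratios were also taken between subunits of the same enzyme. The log2 ratio of Suclg2 to Sucla2, the beta subunits that make the enzyme GTP-forming or ATP-forming, was 1.15, 1.29, 1.01 and 1.18 in WT livers and 0.70, 0.97, 0.70 and 0.73 in HKO livers. Suclg1 to Suclg2 overlapped between genotypes, at -1.32 ± 0.13 in WT and -1.18 ± 0.15 in HKO livers (SD, n = 4 each). Ogdh to Dlst went from -0.13 ± 0.09 to 0.05 ± 0.06 and Idh3a to Idh3g from 0.28 ± 0.12 to 0.65 ± 0.09, both without overlap. Idh3a to Idh3b did overlap, at -1.46 ± 0.07 in WT and -1.23 ± 0.10 in HKO livers. Suclg1 to Sucla2 did not, at -0.16 ± 0.16 and -0.41 ± 0.12. Idh3a to Idh2, which share a substrate, went from -0.82 ± 0.22 to -0.25 ± 0.44, also without overlap.

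**Figure D4:**
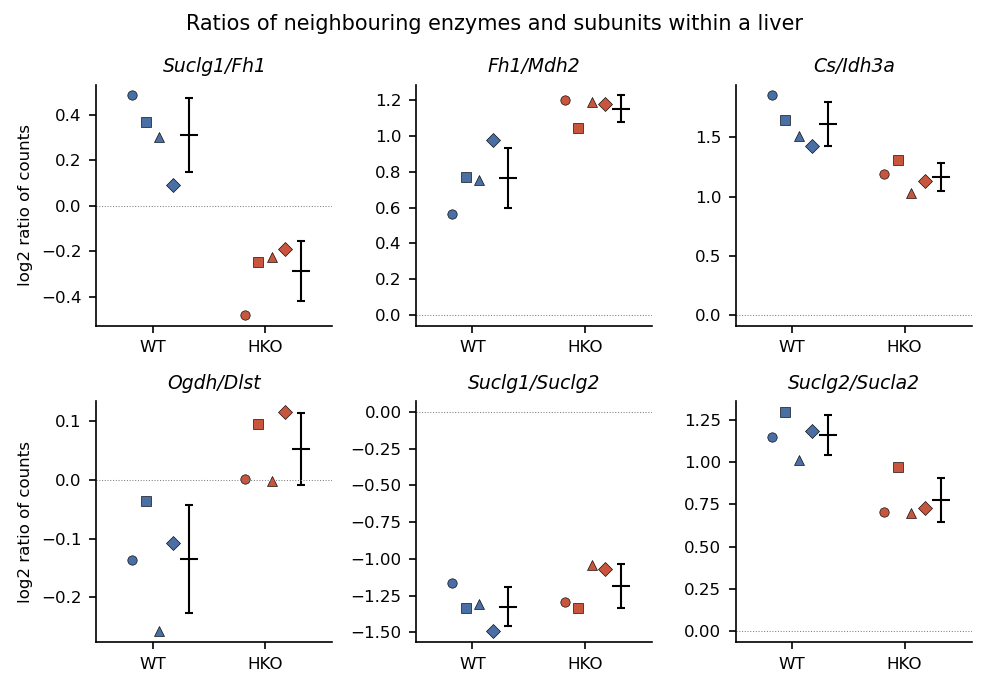
log2 ratio of counts within a liver (y axis, scale set for each panel) for 6 pairs of cycle genes in WT and HKO livers (x axis); symbol shapes give the replicate number (circle 1, square 2, triangle 3, diamond 4) and bars the mean ± SD of 4 livers. Suclg1/Fh1, whose genes separate in opposite directions, changes sign between genotypes, and Suclg1/Suclg2 is the 1 pair shown whose genotypes overlap.

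Levels of different genes were compared per kilobase of annotated exon. In WT livers Pcx was highest, at 69.6 ± 9.27 CPM per kilobase, and Fh1 (43.2 ± 3.24) and Suclg1 (39.5 ± 4.05) followed with overlapping livers (SD, n = 4 each). Idh2, Ogdh, Mdh2 and Cs lay between 28.3 and 21.9 CPM per kilobase, each overlapping the next in order. Dlst was at 16.1 ± 1.26 and Idh3a at 8.10 ± 0.15 CPM per kilobase, each apart from its neighbours. In HKO livers Fh1 stood first at 53.0 ± 2.44 CPM per kilobase and Pcx second at 46.2 ± 7.76, with livers that overlapped. The length used matters: per kilobase of the longest coding transcript, Suclg1 came first in both genotypes, at 120 ± 12.3 CPM in WT, and Idh3a stayed last.

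**Figure D5:**
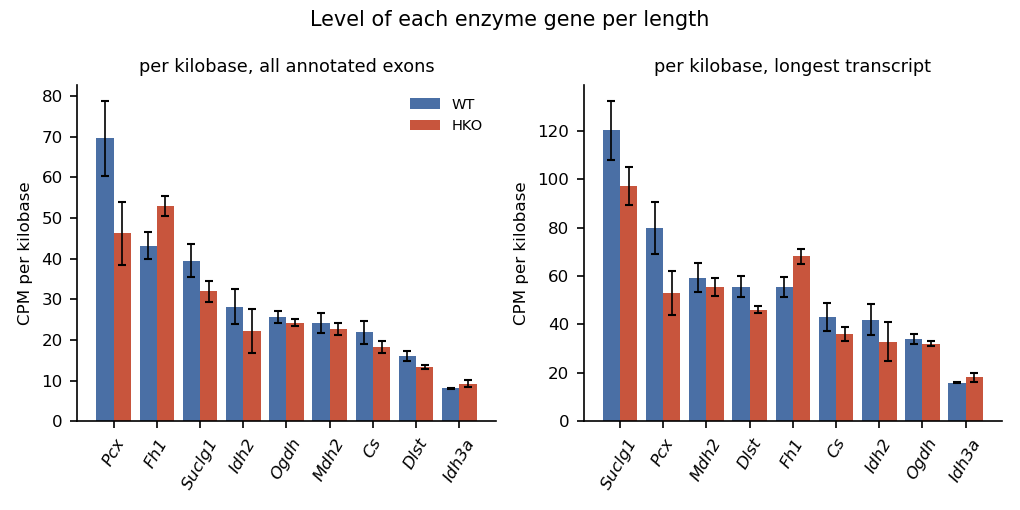
Mean ± SD over 4 livers of CPM per kilobase (y axis, from 0) for the 9 enzyme genes (x axis, in WT order) in WT and HKO livers, by the length of all annotated exons (left) or of the longest coding transcript (right). Pcx leads at 69.6 in WT on the left and Suclg1 at 120 on the right; Idh3a is lowest in both.

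The livers did not differ from each other in the same way for all enzymes. WT replicate 4 was the lowest WT liver for 5 of the 9 (Cs, Idh2, Ogdh, Dlst and Pcx) yet the highest for Idh3a and Fh1. HKO replicate 3 was the lowest HKO liver for 5 (Idh2, Ogdh, Fh1, Mdh2 and Pcx), and HKO replicate 4 was the highest for 5 (Cs, Idh2, Idh3a, Ogdh and Suclg1). The summed level of the 9 was 1180 to 1373 CPM in WT livers and 1013 to 1130 CPM in HKO livers, with means of 1281 and 1099 CPM. Much of that difference is Pcx, the 1 gene called, which went from 331 to 220 CPM. The sum therefore does not show a fall of the set as a whole.

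Markers of liver cell types were read beside these values, where 5.03% of all tested genes were called in either direction. Of 6 hepatocyte markers, 3 were called higher in HKO livers (Serpina1c, which has near-identical paralogs that may share its reads, Cps1 and Hnf4a), and the summed level of the 6, mostly Alb, was 79140 to 111200 CPM in WT livers and 70490 to 124300 CPM in HKO livers. None of the markers of stellate (6 tested), Kupffer (6), endothelial (6) or bile duct cells (3 of 6 tested) was called by edgeR, and 0 of these had an unadjusted p under 0.05 or was called by DESeq2. Summed levels in WT and HKO livers were 140 to 200 and 141 to 229 CPM for stellate, 83.3 to 220 and 62.1 to 205 CPM for Kupffer, and 59.2 to 192 and 98.2 to 222 CPM for endothelial markers. Bile duct markers summed to 40.7 to 51.2 CPM in WT livers and 30.9 to 112 CPM in HKO livers, with the highest sum in HKO replicate 2, and the 6 lymphocyte markers to at most 3.66 CPM. The part of cell composition in the enzyme values was not tested, and in whole liver fewer cells of a type and less RNA per cell cannot be told apart.

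Pyruvate reaches the cycle through the mitochondrial pyruvate carrier and pyruvate dehydrogenase, the branch opposite to Pcx. Of 10 tested genes of pyruvate dehydrogenase and its kinases and phosphatases, 2 were called, both lower, where 3.37% of all tested genes were called lower. Pdha1, the catalytic subunit, had 324, 309, 281 and 303 CPM in WT livers and 229, 220, 204 and 242 CPM in HKO livers, without overlap (log2 fold change -0.44, SE 0.08, edgeR adjusted p = 0.0113), and it was called with any liver left out. Pdk4, the kinase that switches the complex off during fasting, had 12.07, 27.4, 12.04 and 10.8 CPM in WT livers and 4.05, 2.24, 4.56 and 3.07 CPM in HKO livers (log2 fold change -2.15, SE 0.36, edgeR adjusted p = 0.0145). WT replicate 2 was high for Pdk4; without that liver the log2 fold change was -1.72 and the edgeR adjusted p was 0.00517, and the call was lost without HKO replicate 4 (0.054). The most abundant genes not called, Pdk1 and Pdhb, had 153 and 111 CPM in WT livers and 113 and 110 CPM in HKO livers.

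Of 9 tested carriers that move cycle intermediates or pyruvate across the inner membrane, 2 were called, both lower, against 3.37% of all tested genes. Slc25a10, which exchanges malate or succinate for phosphate, had 91.6, 114, 101 and 92.8 CPM in WT livers and 56.3, 60.4, 47.7 and 58.6 CPM in HKO livers, giving a log2 fold change of -0.84 (SE 0.10, edgeR adjusted p = 0.00123). Mpc1, a subunit of the pyruvate carrier, had 340, 371, 309 and 377 CPM in WT livers and 228, 268, 239 and 287 CPM in HKO livers (log2 fold change -0.45, SE 0.10, edgeR adjusted p = 0.0234). The carrier's other subunit, Mpc2, was at 125 ± 18.5 and 124 ± 21.3 CPM in WT livers and HKO livers (SD, n = 4 each), and the aspartate-glutamate carrier Slc25a13 had 328 and 339 CPM. The call of Mpc1 was lost without WT replicate 1 or 2 or HKO replicate 1 or 3 (edgeR adjusted p from 0.0509 to 0.0915), and that of Slc25a10 in none of the 8 fits with a liver left out.

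Of 9 tested transcriptional and post-translational regulators of mitochondrial genes, 1 was called: Ppara, the fatty acid receptor, had 661, 682, 666 and 676 CPM in WT livers and 564, 564, 523 and 492 CPM in HKO livers (log2 fold change -0.33, SE 0.08, edgeR adjusted p = 0.0358). That call held without HKO replicate 1 and was lost without any other liver (edgeR adjusted p from 0.0542 to 0.119). Gabpa and Tfam, the most abundant not called, had 99.4 and 66.4 CPM in the WT group, against 105 and 60.98 CPM in the HKO group. For both the regulators and the next list, the share of all tested genes called was 5.03% in either direction and 3.37% lower. Of 18 genes of mitochondrial fatty acid oxidation, whose acetyl-CoA enters at Cs, 9 were called lower and 0 higher, with a median log2 fold change of -0.37. The 9 were Cpt1a, Slc25a20, Acadm, Acads, Hadha, Hadh, Eci1, Decr1 and Etfdh. Of these, Slc25a20, Acadm, Hadh, Eci1, Decr1 and Etfdh were called with any liver left out, and Cpt1a, Acads and Hadha in 2, 6 and 4 of the 8 fits. Acaa2 and Acadl, the most abundant not called, had log2 fold changes of -0.09 and -0.36. Of the 14 genes called in these linked lists, 4 (Pdha1, Pdk4, Ppara and Cpt1a) held a match to the miR-33 seed in the 3'UTR, where 16.1% of tested genes did. No test compared these shares. All 4 genes were lower in HKO livers, and whether miR-33 acts on these matches was not tested. For Cpt1a the paper reports more protein in HKO livers by Western blot, a measure not made here.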

How the data were processed

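RNA-Seq was analysed from 4 WT and 4 HKO livers. The authors deposited estimated counts per gene from Partek's expectation-maximization quantification, before normalization, with Partek and STAR named as tools per the labels. Of the deposited values 80.3% are whole and the rest fractional, and 0 columns were left unmapped. The labels name both rRNA depletion and a small RNA kit, so the library type is uncertain. Coordinates are as listed, on GRCm38. Groups and replicate numbers came from the labels. The descriptions of the 4 WT livers all begin with the same number, although their titles differ. Replicate numbers were taken from the end of the descriptions and match the column names.

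Estimated counts were rounded. edgeR 4.0.16 in R 4.3.3 was used with TMM scaling, its expression filter (minimum count 10) and the robust quasi-likelihood test, with Benjamini-Hochberg adjustment over 12395 genes; each SE is the size of the log2 fold change over the root of F. log2 CPM used a prior count of 2. The study's text read here did not name the test behind its differential expression. DESeq2 1.42.0 and limma-voom (limma 3.58.1) were run as alternatives, with the legacy quasi-likelihood method, other scalings and filters, the replicate number as a block, and each liver left out. Counts were also simulated for this comparison (12395 genes, 200 changed). In these, edgeR recovered 95.9% of genes changed 4-fold and 71.7% of those changed 2-fold, and 6.25% of its calls were unchanged genes. DESeq2 gave 97.0%, 72.0% and 16.3%. The largest difference of an enzyme gene, that of Pcx (log2 fold change -0.59), was smaller than 2-fold. The recovery rates therefore do not say how often differences of the size seen in the enzyme genes would be called. With 624 genes called in the livers, the simulated share of unchanged calls may not carry over either.

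The members and gene lists were chosen with earlier results of these data known. Named were all 9 enzyme genes, the other cycle subunits (1 is not reported here), called genes and the 2 most abundant uncalled genes of each further list, and the 5 genes most alike. Exon lengths and 3'UTRs came from the GRCm38 annotation. Python 3.11.15, pandas 2.3.3 and matplotlib 3.10.9 were used.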

Additional observations from a re-analysis of the deposited data

Results flagged for a closer look

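In 48 groups of 4 livers (the enzyme genes, the other tested cycle subunits, 5 called genes of linked pathways and the total counts), 2 held a liver well outside the range of its group; by chance about 1 in 20 groups, or 2.4, would. Sdhd, a membrane subunit of succinate dehydrogenase, had 195 CPM in WT replicate 1 and 150 to 157 CPM in the other WT livers. Pdk4 had 27.4 CPM in WT replicate 2 and 10.8 to 12.1 CPM in the other WT livers. None of the 9 enzyme genes was among them.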

How the results depend on the processing

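The number of the 9 enzyme genes called was 1 under limma-voom, the legacy quasi-likelihood method, upper quartile or RLE scaling, the replicate block, a filter of 10 counts in all livers and the unfiltered table; it was 3 with DESeq2, 3 with total count scaling, and 0 to 3 with a liver left out. For the other cycle subunits it was 1 in each of these settings and 0 to 1 with a liver left out. The median log2 fold change of the 9 kept its sign, from -0.31 to -0.17 with a liver left out and at -0.34 with total count scaling, which moved the median of all tested genes by -0.09. The number of genes without overlap was also 4 with CPM scaled by total counts or by RLE size factors. The median WT level, 25.7 CPM per kilobase of exon, was 52.6 per kilobase of the longest coding transcript and 88.0 per kilobase of coding length. None of the 9 enzyme genes reversed under any of these settings. Signs reversed in genes near 0, none of them called: with total count scaling Sdhb (-0.012), Mdh1 (-0.019), Slc25a13 (-0.043), Sdhaf2 (-0.043) and Gabpa (-0.014), and with a liver left out Idh3b (-0.055 to 0.024), Sdhd (-0.18 to 0.012), Pdhb (-0.074 to 0.067) and Mpc2 (-0.12 to 0.074); the cause was not tested. Same-numbered livers did not deviate together: their correlations, from -0.148 to 0.0116 over 4 pairs, lay within the -0.213 to 0.245 of differently numbered pairs. The labels do not say whether the numbers match mice, and correlations of this size cannot decide it. With the replicate block Pcx had an edgeR adjusted p of 0.0335, and 456 in place of 624 genes were called. Of the named genes, Pdk4 (0.0629), Ppara (0.0829) and Hadha (0.0686) were not called with the block and Me1 was (0.00219). The calls of Fh1, Dlst and Suclg1 depended on the method, and 4 livers per genotype limit how small a difference can be called.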

Other observations

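Enzymes outside the matrix and reactions that feed or drain the cycle held no called gene by edgeR with TMM scaling and all 8 livers. Of 5 cytosolic counterparts 2, and of 13 tested entry and exit enzymes 3, had an unadjusted p under 0.05, and DESeq2 called 1 in each list. Mdh1 and Idh1, the most abundant cytosolic ones, had 568 and 563 CPM in WT livers against 594 and 482 CPM in HKO livers. Pck1, which draws oxaloacetate to glucose, and Glud1, which supplies 2-oxoglutarate from glutamate, had 1370 and 1262 CPM in WT livers against 1778 and 1356 CPM in HKO livers. Chosen after their values were seen, 2 further genes had genotypes that did not overlap. Me1, cytosolic malic enzyme, had 608, 477, 311 and 399 CPM in WT livers and 225, 208, 93.0 and 198 CPM in HKO livers (log2 fold change -1.31, SE 0.32, edgeR adjusted p = 0.0658). It was called with total count scaling (edgeR adjusted p = 0.0483), by limma-voom (0.0235), by DESeq2 (0.00332) and without HKO replicate 3 (log2 fold change -1.09, edgeR adjusted p = 0.0278). Got1, the cytosolic aspartate aminotransferase, had 105, 125, 129 and 134 CPM in WT livers and 448, 278, 147 and 370 CPM in HKO livers (log2 fold change 1.33, SE 0.32, edgeR adjusted p = 0.0628). HKO replicate 3 was the lowest HKO liver for Got1; without it the log2 fold change was 1.57 and the edgeR adjusted p was 0.000847, and limma-voom (0.0305) and DESeq2 (0.00208) called the gene with all livers. Of 7 lipoylation and complex II assembly genes 0 were called by edgeR or DESeq2 and 0 had an unadjusted p under 0.05, with Lias at 41.0 and 37.6 CPM and Sdhaf2 at 29.8 and 30.8 CPM in WT livers and HKO livers.

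The tested genes whose log2 CPM over the 8 livers lay closest to the mean centred profile of the 9 enzyme genes were Slc35f5, Usp10, Zfand3, Ppm1a and Eaf1, at a mean absolute difference of 0.03 to 0.04. Their log2 fold changes ran from -0.18 to -0.12, and none was called (edgeR adjusted p from 0.252 to 0.447).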
